A study of Mus musculus with 6 samples.

Results

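Elane, Prtn3, Mpo and Ctsg are the 4 genes that encode neutrophil elastase, proteinase 3, myeloperoxidase and cathepsin G, the main cargo of the primary (azurophil) granules of neutrophils. They were taken by symbol from the feature lists of the deposited matrices, where each matched 1 of 32285 genes. The measurements were single-cell RNA sequencing of CD11b+ bone marrow cells from C57Bl/6 mice, 2 months old, with 3 femur samples (femurs and tibiae per the labels, femurs alone per the study's methods) and 3 mandible samples, the latter flushed from jaws after the molars had been removed. Femur replicate 1 was female and the other 5 samples were male. Cells were enriched with CD11b microbeads, and no sample carried a transgene, deletion or treatment. The sources used here do not say whether a sample was 1 mouse or a pool, so p-values measure the spread between these samples.

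Primary granules are the earliest granules that a developing neutrophil builds, at the promyelocyte stage, and transcription of their proteins is shut off before the secondary granules (lactoferrin, Ngp, cathelicidin) are made. The mature cell then carries the stored proteins with little of the mRNA. Elastase, proteinase 3 and cathepsin G are chymotrypsin-fold serine proteases that are made as zymogens and activated by cathepsin C. Myeloperoxidase is a haem enzyme that makes hypochlorous acid from hydrogen peroxide and chloride, and it is also made, at lower levels, by monocyte precursors.

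The sequences just before the RefSeq starts of the genes are shown because the 4 genes were high in the same cells, and they share a short motif there. In the GENCODE vM21 annotation of the mouse build GRCm38 (mm10), Prtn3 (ENSMUSG00000057729) lay on chromosome 10 at 79874476 to 79883174 and Elane (ENSMUSG00000020125) at 79886247 to 79888215, both on the plus strand with 3072 bases between them. Mpo (ENSMUSG00000009350) lay on chromosome 11 at 87793581 to 87804413, with up to 14 exons, and Ctsg (ENSMUSG00000040314) on the minus strand of chromosome 14 at 56099881 to 56102574. The RefSeq start used for Prtn3 lay inside this GENCODE span of the gene, and so did the stretch printed for it. Prtn3 overlapped Plppr3 and Mpo overlapped Gm11505 on the opposite strand, and the sources used here do not state whether counting used the strand. Each stretch below is the part of the 250 bases before the RefSeq start (GRCm38.p6) that held no annotated exon base of the gene, written 5′ to 3′ on the gene's strand, with the letters GAGGAA, a core of sites bound by the ETS factor PU.1, in capitals.
Elane, chr10:79886062-79886246, plus strand: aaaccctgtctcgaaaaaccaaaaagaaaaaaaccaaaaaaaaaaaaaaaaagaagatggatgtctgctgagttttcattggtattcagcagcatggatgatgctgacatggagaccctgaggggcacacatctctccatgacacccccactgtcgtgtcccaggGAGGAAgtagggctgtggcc
Prtn3, chr10:79879417-79879613, plus strand: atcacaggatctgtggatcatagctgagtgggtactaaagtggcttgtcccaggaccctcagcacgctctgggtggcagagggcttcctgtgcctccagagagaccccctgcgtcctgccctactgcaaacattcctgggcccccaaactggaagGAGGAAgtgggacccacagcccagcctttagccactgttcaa
Mpo, chr11:87793534-87793580, plus strand: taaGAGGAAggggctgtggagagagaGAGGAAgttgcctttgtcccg
Ctsg, chr14:56102575-56102824, minus strand: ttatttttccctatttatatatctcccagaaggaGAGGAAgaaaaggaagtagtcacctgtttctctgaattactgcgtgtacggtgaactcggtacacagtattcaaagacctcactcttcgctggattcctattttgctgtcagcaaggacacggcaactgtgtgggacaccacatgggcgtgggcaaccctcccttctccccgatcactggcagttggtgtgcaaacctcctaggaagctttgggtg

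GAGGAA, searched on both strands of the whole 250 bases, began 85 bases before the start of Elane, 95 before that of Prtn3, 247 and 224 before that of Mpo, and 216 before that of Ctsg. It was on the gene's strand in each. Of all 32851 promoters of the same length, 23.3% held it on either strand, against 4 of 4 members. AACNG, the core of MYB sites, was in 4 of 4 members and in 74.2% of all promoters. Elane and Prtn3 both held it as AACGG, beginning 50 and 55 bases before the RefSeq start. Both AACNG matches of Elane and the 1 match of Mpo, 165 bases before, lay in annotated exon, past the printed stretches. AACGG of Prtn3 crossed the end of its printed stretch. TGTGGT, the RUNX core, was found in Ctsg alone among the members and in 14.0% of all promoters, where it did not overlap GAGGAA. TTNNGNAA, a loose form of the sites read by C/EBP factors, was in 0 of 4 members and in 36.8% of all promoters, which says only that these letters are not in this window. A match describes letters and not binding.

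The authors kept 69776 cells of 74091 barcodes, 7763 to 22797 per sample, with a median of 6924 to 9158 UMIs (unique molecular identifiers, each counting 1 captured transcript) per cell. Of the 69276 distinct cell barcodes, 500 occurred in 2 or more samples. Their 9 clusters are used here by number. Cluster 4 held 7621 cells, 630 to 2989 per sample, with the deepest cells (median 21561 UMIs) and sums of 14574959 to 68716851 UMIs per sample. It carried the neutrophil precursor markers Fcnb (mean 1450 CPM, the UMIs of a gene per 1000000 UMIs of the summed counts), Ms4a3 (207 CPM) and the proliferation genes Hist1h2ap (1948 CPM), Top2a (865 CPM) and Mki67 (565 CPM). Clusters 0 to 3 were maturing neutrophils and cluster 5, with 7354 cells, was the monocyte cluster, with F13a1 (853 CPM) and Ccr2 (748 CPM) at 10.1 and 5.08 CPM in cluster 4. Cluster 6 held B cells, cluster 7 cells of high mitochondrial share and cluster 8 haemoglobin-rich cells. The clusters were made from these same cells, so levels by cluster are a description without a test.

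All 4 transcripts were highest in cluster 4. Elane, the elastase gene, stood at 788, 760 and 616 CPM in femur replicates 1 to 3 and at 994, 1559 and 1630 CPM in mandible replicates 1 to 3. Prtn3, proteinase 3, stood at 673, 537 and 507 CPM in the femurs and at 695, 1310 and 1191 CPM in the mandibles. For both proteases every mandible sample was above every femur sample. Mpo stood at 259, 217 and 135 CPM in the femurs and at 237, 409 and 483 CPM in the mandibles. Ctsg stood at 101, 82.8 and 49.5 CPM in the femurs and at 65.9, 201 and 191 CPM in the mandibles. For these genes mandible replicate 1 lay among the femur samples, while the other mandible samples lay above all of them. A 3′ library counts captured molecules and not length, and whether capture was equal between the genes was not tested. In CPM the order Elane, Prtn3, Mpo, Ctsg held in each of the 6 samples.

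**Figure D1:**
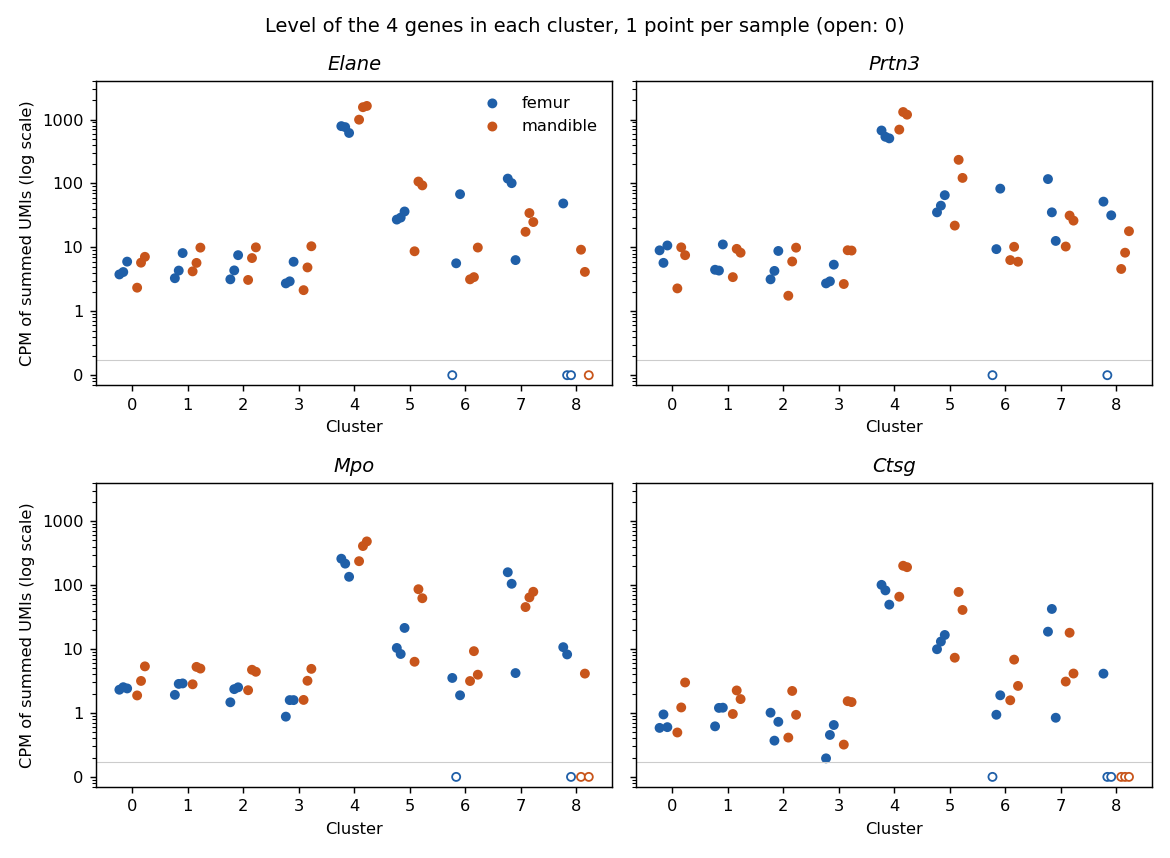
UMIs per 1000000 UMIs (CPM, log axis) of each of the 4 genes in each of the 9 clusters, 1 point per sample (3 femur, 3 mandible). Cluster 4 stands highest for all 4 genes, with Elane at 616 to 1630 CPM there against 8.68 to 107 CPM in cluster 5, and open points at the bottom are samples at 0.

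Outside cluster 4 the transcripts were sparse. Elane averaged 50.6 CPM in cluster 7, 50.3 in cluster 5, 15.0 in cluster 6 and 10.3 in cluster 8, and 4.83 to 5.93 CPM in the maturing neutrophils of clusters 0 to 3. Prtn3 averaged 87.2 CPM in cluster 5, 38.8 in cluster 7, 19.1 in cluster 6 and 19.0 in cluster 8, and 5.27 to 7.55 CPM in clusters 0 to 3. The samples of cluster 4 lay wholly above those of every other cluster for these proteases. Mpo averaged 290 CPM in cluster 4, 76.1 in cluster 7 and 32.5 in cluster 5, and 2.29 to 3.84 CPM elsewhere. Ctsg averaged 115 CPM in cluster 4, 27.7 in cluster 5 and 14.5 in cluster 7, and 0.686 to 2.31 CPM elsewhere. For Mpo and Ctsg the sample ranges of cluster 4 and the next cluster overlapped, and below cluster 4 every neighbouring pair in the order overlapped for all 4 genes.

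Cluster 4 held 94.5 to 98.1% of a sample's Elane UMIs, 88.1 to 96.1% of its Prtn3, 85.7 to 94.2% of its Mpo and 78.1 to 93.8% of its Ctsg. The share of the summed 4 genes was 93.7% ± 1.59 (SD, n = 3) in the femurs and 92.8% ± 3.34 (n = 3) in the mandibles, a difference of -0.912 percentage points (2-sided exact permutation test, p = 0.70, where 3 against 3 cannot go below 0.10). Its sign depended on the cells counted and on mandible replicate 2, without which it was 0.481 points. Per gene the differences were 0.146, -0.666, -3.08 and -4.97 points for Elane, Prtn3, Mpo and Ctsg (exact permutation p = 0.80, 0.90, 0.30 and 0.50, adjusted p = 0.90 each).

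Detection per cell was also highest in cluster 4. An Elane UMI was found in 32.2 to 40.2% of a sample's cluster 4 cells, a Prtn3 UMI in 41.7 to 56.8%, an Mpo UMI in 15.6 to 25.9% and a Ctsg UMI in 11.7 to 19.8%. Cluster 4 cells were also the deepest, so the counts of each cell were also drawn down at random to 1000 UMIs. On average over the samples, 18.4% of cluster 4 cells then had an Elane UMI, 19.6% Prtn3, 9.01% Mpo and 4.95% Ctsg. B cells, which do not make these proteins, gave 1.49, 1.17, 0.276 and 0.299% (cluster 6, median 4285 UMIs before thinning). The immature, secondary-granule neutrophils of cluster 0 gave 0.801, 0.951, 0.417 and 0.166%. The monocyte cluster gave 1.90% for Elane, 4.17% for Prtn3, 1.40% for Mpo and 1.23% for Ctsg. The B cell shares ran over the samples from 0 to 3.33% for Elane and Prtn3, 0 to 1.27% for Mpo and 0 to 1.02% for Ctsg, with as few as 39 cells in a sample, and the ranges of clusters 0 and 5 overlapped them for each gene. No difference between these 3 clusters is read from the means. Free RNA gives UMIs in cells that do not express a gene, and its part in the low values of the other clusters was not tested.

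Transcripts of the family sat in few cells. Within cluster 4, the 5% of cells with most UMIs of a gene held 52.5 to 76.3% of the Elane UMIs of a sample, 50.9 to 71.2% of its Prtn3, 65.7 to 92.3% of its Mpo and 83.1 to 93.1% of its Ctsg. Detection was nested. Of 1157 cells with a Ctsg UMI, 94.9% (mean of 6 samples) also had Prtn3, 87.8% Elane and 75.7% Mpo, whereas 37.3% of the 2871 cells with Elane had Ctsg and 48.2% had Mpo. After thinning, 95.5% of 326 cells with Ctsg had Elane, and 24.4% of 1324 cells with Elane had Ctsg. Across cluster 4 cells the highest range of r was that of Elane with Prtn3 (Pearson r of CPM 0.912 to 0.957 per sample). The ranges of Mpo with Ctsg (0.844 to 0.918), Elane with Mpo (0.821 to 0.888) and Prtn3 with Mpo (0.771 to 0.885) overlapped one another. Elane with Ctsg gave 0.695 to 0.782 and Prtn3 with Ctsg 0.659 to 0.780. These r are over cells of 1 library each, which share depth and droplet background, and carry no test.

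All 4 transcripts together were found in 852 of 7621 cluster 4 cells without thinning. The share thinned to 1000 UMIs was 5.36, 2.42 and 1.51% in the femurs and 3.02, 6.77 and 5.65% in the mandibles. Means were 3.10% ± 2.02 and 5.14% ± 1.93 (SD, n = 3 each), and the sites overlapped (exact permutation p = 0.20). The difference in these means ran from 1.24 to 3.18 points without 1 sample. Unthinned, the shares were 14.7, 10.7 and 7.80% in the femurs and 8.73, 16.4 and 13.9% in the mandibles, a difference in means of 1.97 points (exact permutation p = 0.60).

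Cluster 4 cells were grouped by their Elane level to describe what goes with it. No Elane UMI was present in 4750 cells, 1563 lay under 500 CPM, 829 at 500 to 5000 CPM and 479 at 5000 CPM or more. The top band held 67.0% ± 2.08 of cluster 4's Elane UMIs in the femurs and 82.8% ± 3.24 in the mandibles (SD, n = 3 each). Over these 4 bands, from none to the top, the mean level of Prtn3 was 28.8, 204, 1584 and 7874 CPM. Mpo went from 2.34 and 12.8 to 326 and 3433 CPM. Ctsg went from 2.97 and 7.94 to 93.4 and 1362 CPM. Mpo and Ctsg were thus low in the cells under 500 CPM of Elane, where Prtn3, the more abundant transcript, was found in 79.7% of cells, and all 3 were higher in the upper bands.

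Of the secondary granule transcripts described along the bands, Ltf, Ngp, Lcn2 and Chil3 ran the other way and Camp fell in the top band alone. Ltf (lactoferrin) stood at 9637 CPM without Elane and at 545 CPM in the top band, Ngp at 36484 and 7829 CPM, and Lcn2 (lipocalin 2) at 12684 and 1663 CPM. Chil3, a chitinase-like protein, stood at 8597 and 2024 CPM. Camp, the cathelicidin gene, stood at 43276, 46679, 47277 and 27966 CPM over the 4 bands. The proliferation gene Mki67 stood at 661 and 255 CPM. Of the cells in these bands 68.8 and 37.4% were called G2M, and 30.1 and 61.8% were called S. Granule-related genes were higher in the bands of high Elane. Srgn, the proteoglycan core serglycin that packs granule proteases, stood at 361 and 2196 CPM, Cst7 (cystatin F, an inhibitor of cathepsin C) at 0.642 and 132 CPM, and Calr (calreticulin, the chaperone of myeloperoxidase) at 43.3 and 468 CPM. Fcnb, ficolin B, was 939 CPM without Elane and 2692 CPM in the top band. The bands were cut on Elane itself in the same cells, so these values describe and test nothing.

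**Figure D2:**
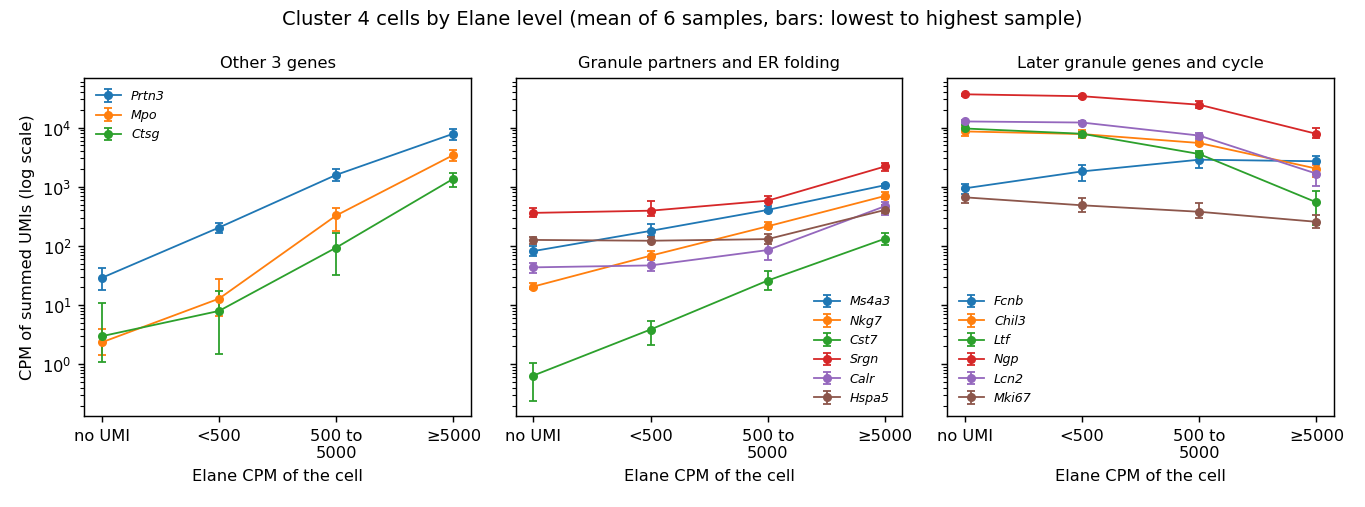
Mean level (CPM, log axis) of the other 3 genes and of selected granule and proliferation genes in the 4 bands of Elane level in cluster 4 cells, with points for the mean of 6 samples and bars from the lowest to the highest sample. Prtn3 goes from 28.8 to 7874 CPM and Mpo from 2.34 to 3433 CPM, while Ltf goes from 9637 to 545 CPM.

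The share of cluster 4 cells at 5000 CPM of Elane or more was 7.03, 5.17 and 3.71% in the femurs and 6.19, 10.9 and 9.62% in the mandibles. The means were 5.30% ± 1.66 and 8.89% ± 2.42 (SD, n = 3 each), and mandible replicate 1 overlapped the femurs (exact permutation p = 0.20). Within 20% of that value lay 156 cells. At 10000 CPM the shares were 2.20, 1.54 and 1.57% against 4.29, 6.41 and 6.13%, with no overlap (exact permutation p = 0.10, the smallest this design allows), and at 2500 CPM the means were 9.33 and 12.1% (p = 0.50, exact permutation). The 2 other values were chosen after the data had been seen.

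The authors' reference labels (SingleR, matched to sorted mouse populations) divided cluster 4 further. Levels and UMI shares by label are pooled over the 6 samples. Of its cells, 7258 were labelled neutrophils and carried 561 CPM of Elane, 448 of Prtn3, 107 of Mpo and 31.7 of Ctsg. Another 303 cells were labelled pro-B or stem cells and carried 10176 CPM of Elane, 7917 of Prtn3, 3845 of Mpo and 1828 of Ctsg. These cells held 37.9% of the cluster's Elane UMIs, 37.3% of Prtn3, 53.7% of Mpo and 64.2% of Ctsg. Of the cells in the top Elane band 52.8% were labelled neutrophils, against 99.0% of those without Elane. The B cell genes were near 0 in cluster 4 as a whole (5 genes summed, 1.15 to 15.3 CPM per sample), so the labels are given by name only, and they were assigned from the same expression values.

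The pro-B or stem cell labels took 4.75, 2.75 and 1.74% of cluster 4 in the femurs and 4.44, 7.57 and 7.09% in the mandibles. Means were 3.08% ± 1.53 and 6.37% ± 1.68 (SD, n = 3 each), and mandible replicate 1 lay inside the femur range (exact permutation p = 0.20). Neutrophil-labelled cells took 96.4 and 92.1% (p = 0.10, exact permutation, the smallest possible).

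The 4 genes were compared between mandible and femur marrow, the contrast the study was designed for, with the edgeR quasi-likelihood test on UMIs summed per sample, cluster by cluster, with Benjamini-Hochberg adjustment over all genes tested. In cluster 4 the mean was 721 ± 91.8 CPM in the femurs and 1394 ± 349 CPM in the mandibles for Elane (SD, n = 3 each) and 572 ± 88.7 and 1065 ± 326 CPM for Prtn3. The log2 fold changes, mandible over femur, were 0.98 ± 0.17 (SE) for Elane, 0.93 ± 0.21 for Prtn3, 0.93 ± 0.25 for Mpo and 1.03 ± 0.36 for Ctsg. Each was about as large as 1 doubling, and none passed (edgeR adjusted p = 0.205, 0.232, 0.259 and 0.315).

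The share of cluster 4 cells with a UMI did not follow the CPM. An Elane UMI was found in 37.4% ± 1.77 of the cells in the femurs and 37.3% ± 4.45 in the mandibles, and a Prtn3 UMI in 53.7% ± 4.62 and 49.1% ± 6.39 (SD, n = 3 each). For Mpo the shares were 19.3 and 22.1%, and for Ctsg 15.2 and 16.6%. Thinned to 1000 UMIs per cell, the means were 17.3 and 19.6% for Elane, 19.6 and 19.7% for Prtn3, 8.26 and 9.77% for Mpo and 3.92 and 5.99% for Ctsg. The sites overlapped in all 8 of these comparisons (exact permutation p from 0.30 to 1.00, adjusted p = 1.00 each), which were added after the data had been seen.

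All 4 members were higher in mandible cluster 4 at an unadjusted p of 0.05 by edgeR, where 6.21% of the 12265 genes tested were. All mandible samples lay above all femur samples for 2 of 4 members, against 5.90% of genes. After multiple-testing adjustment 0.0245% of genes passed in that cluster. DESeq2 called Elane (adjusted p = 1.12e-07) and Prtn3 (0.000151) but not Mpo (0.186) or Ctsg (0.468), where it called 1.23% of genes. Without mandible replicate 1, edgeR called all 4 (log2 fold changes 1.17, 1.15, 1.16 and 1.38, adjusted p = 0.0143, 0.0217, 0.0494 and 0.0413), where 0.762% of genes passed. No other fit without 1 sample called a member. Over these fits the values ran from 0.86 to 1.17 for Elane and 0.72 to 1.15 for Prtn3. For Mpo they ran from 0.73 to 1.16 and for Ctsg from 0.74 to 1.38. Without a filter on low counts edgeR also called all 4, with 2.02% of genes. Over 17 alternatives the adjusted p of Elane ran from 8.64e-08 to 0.989 and that of Ctsg from 0.000114 to 0.900. The lower ends came from an edgeR fit of 4 samples with the library number as a block, which called all 4 members and 3.67% of genes. That fit also left out femur replicate 1 and mandible replicate 3. With a block and a site term over 4 samples, little was left to measure the spread between samples.

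**Figure D3:**
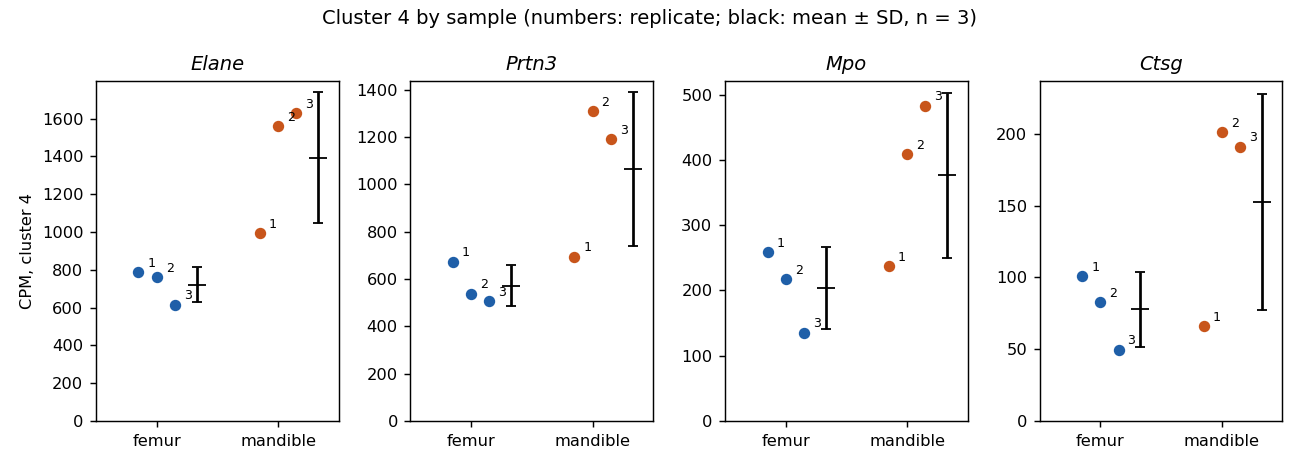
CPM of the 4 genes in cluster 4, 1 point per sample with the mean and SD of the 3 femur and 3 mandible samples. Elane and Prtn3 do not overlap between the sites, whereas mandible replicate 1 lies within the femur range for Mpo (237 CPM) and Ctsg (65.9 CPM).

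The size of the difference varied with the cluster 4 cells counted, and the subsets were not tested against each other. The labels were assigned from the same expression values, so a subset by label is not independent of the member levels. In neutrophil-labelled cells Elane stood at 472, 520 and 487 CPM in the femurs and at 469, 852 and 735 CPM in the mandibles. The log2 fold changes there were 0.54 ± 0.19, 0.47 ± 0.22, 0.32 ± 0.19 and 0.14 ± 0.28 for Elane, Prtn3, Mpo and Ctsg (edgeR adjusted p = 0.377, 0.484, 0.588 and 0.900). In cells with any other label they were 0.43, 0.40, 0.15 and 0.13. Both sets of values were below those of the whole cluster, in which the share of the label with the highest levels also differed between samples. The part of label shares in the site values was not tested. In S phase cells alone the values were 0.78, 0.68, 0.65 and 0.71, and in G2M cells alone 1.21, 1.20, 1.25 and 1.40 (edgeR adjusted p from 0.143 to 0.496 over both). These subsets were chosen after the data had been seen. In the 88 G1 cells the values were below 0, from -0.39 for Elane to -2.69 for Ctsg.

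**Figure D4:**
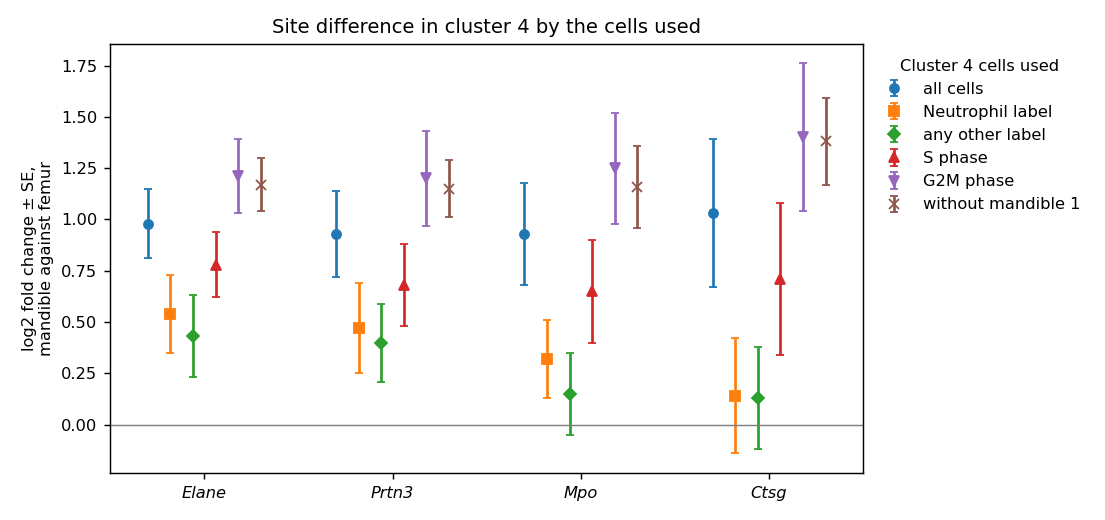
Log2 fold change, mandible over femur, with SE for the 4 genes in cluster 4, for all of its cells, for subsets by label and by S or G2M phase, and without mandible replicate 1. In all cells the values are 0.93 to 1.03, in neutrophil-labelled cells 0.14 to 0.54 and in G2M cells 1.20 to 1.40.

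In cluster 4, markers of some other cells were higher in mandible replicates 2 and 3. No tested gene of the marker lists was called between the sites by edgeR, where 0.0245% of all genes were. Of 6 basophil and mast cell genes the summed level was 2.05 to 2.74 CPM in the femurs and 1.65, 83.2 and 152 CPM in mandible replicates 1 to 3. The 4 erythroid genes summed to 11.5 to 30.3 CPM in the femurs and to 16.3, 171 and 92.5 CPM in the mandibles. Mandible replicate 1 was low in both lists, as it was for Mpo and Ctsg. The 5 B cell genes summed to 1.18, 5.86 and 1.15 CPM in the femurs and to 6.79, 15.3 and 11.3 CPM in the mandibles, where no sample overlapped. The 6 monocyte genes summed to 795 to 816 and 746 to 809 CPM, of which Ly6c2, a gene that cluster 4 itself carried at 763 CPM, made up most. Without it the other 5 summed to 9.76, 28.7 and 9.91 CPM in the femurs and to 45.4 and 75.7 CPM in mandible replicates 2 and 3, with mandible replicate 1 inside the femur range. The 6 neutrophil precursor and proliferation genes summed to 5255 to 6086 CPM in the femurs and 3682 to 5336 CPM in the mandibles, with 4 lower and 2 higher in mandible by their means. Fcnb was lower without overlap, at 1584 to 1758 and 1098 to 1368 CPM, as were Mki67 (569 to 770 and 434 to 541 CPM) and Top2a (845 to 1223 and 613 to 820 CPM), while Hist1h2ap averaged 2081 and 1815 CPM with overlap. Prss57, a serine protease of the same list, was higher without overlap, at 38.6 to 43.9 and 44.0 to 57.4 CPM, and Ms4a3 averaged 200 and 213 CPM. The 4 eosinophil genes summed to at most 1.25 CPM, and no marker list had a gene at 0 in every sample. The 6 myeloid progenitor genes summed to 41.1, 30.7 and 22.7 CPM in the femurs and to 28.4, 27.5 and 30.1 CPM in the mandibles. Kit made up most of that sum (30.2 and 23.8 CPM on average), and the other genes of the list averaged higher in mandible. The 7 maturing neutrophil genes summed to 80819 to 87502 and 84171 to 90022 CPM. Among them Mmp8 was higher without overlap (163 to 278 and 325 to 518 CPM). Il1b was lower, also without overlap (59.0 to 91.5 and 32.5 to 50.1 CPM). The 4 basophil-labelled cells of cluster 4 held 0.00498% of its Elane UMIs and 0.845% of its Ctsg UMIs, and 58.8% of its Mcpt8 UMIs, while neutrophil-labelled cells held 27.5% of the Mcpt8 UMIs. The part of other cells in the site values was not tested.

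Over all kept cells Elane stood at 184, 153 and 180 CPM in the femurs and at 167, 424 and 424 CPM in the mandibles. Mandible replicate 1 lay among the femurs for Elane, Prtn3 and Mpo and below them for Ctsg, whereas the other mandible samples lay above. The log2 fold changes were 0.92 ± 0.33, 0.89 ± 0.39, 0.97 ± 0.37 and 1.17 ± 0.50 for Elane, Prtn3, Mpo and Ctsg (edgeR adjusted p from 0.440 to 0.533). At an unadjusted p of 0.05 all 4 were higher in mandible, against 4.69% of genes tested, and 0 of 4 had every mandible sample above every femur sample, against 4.40% of genes. Among all genes 0% passed the adjusted threshold over all cells. Without mandible replicate 1, Mpo (log2 1.33, edgeR adjusted p = 0.0413) and Ctsg (1.61, 0.0335) passed, where 0.218% of genes did. No member passed without any other single sample. Over the fits without 1 sample Elane ran from 0.69 to 1.24 and Prtn3 from 0.53 to 1.24. Mpo ran from 0.74 to 1.33 and Ctsg from 0.73 to 1.61.

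In the remaining clusters no member was called by edgeR, where 0.0163% of genes passed in cluster 0, 0.0842% in cluster 1, 0.0416% in cluster 2, 0.0108% in cluster 3 and 0.0842% in cluster 7. Unadjusted p lay under 0.05 for Mpo alone in cluster 1 (0.0255) and cluster 3 (0.0281), where 13.6 and 4.38% of all genes were under it, and DESeq2 called no member there. In clusters 6 and 8 no member, and in clusters 2 and 3 not Ctsg, passed the filter on low counts.

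Cluster 5, the monocyte cluster, carried less of all 4. Elane stood at 27.2, 29.2 and 36.4 CPM in the femurs and at 8.68, 107 and 93.2 CPM in the mandibles. Prtn3 stood at 35.3, 44.9 and 65.5 CPM and at 21.9, 234 and 122 CPM. Mpo ran from 6.33 to 86.3 CPM and Ctsg from 7.32 to 78.2 CPM over the 6 samples. Mandible replicate 1 was lowest and mandible replicates 2 and 3 were highest for each gene. The log2 fold changes were 1.11 ± 0.71, 1.30 ± 0.70, 1.85 ± 0.81 and 1.61 ± 0.69 (edgeR adjusted p from 0.701 to 0.767). They moved with single samples. Without mandible replicate 2 they were 0.64, 0.47, 1.24 and 0.78, without mandible replicate 1 they were 1.64, 1.81, 2.38 and 2.11, and without femur replicate 3 Mpo was 2.52. Ctsg alone was under an unadjusted p of 0.05 (0.0496), where 7.11% of genes were in either direction and 3.25% as genes higher in mandible, and 0 of 4 members had the sites apart, against 7.32% of genes. Of all genes 0% passed in cluster 5. DESeq2 called no member either.

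Markers of some other cells moved with these levels in cluster 5 too. The 6 basophil and mast cell genes summed to 70.4, 56.0 and 206 CPM in the femurs and to 65.2, 311 and 438 CPM in the mandibles. The 4 erythroid genes summed to 456, 636 and 152 CPM and to 583, 1243 and 1311 CPM, the 5 B cell genes to 9.89 to 11.7 CPM in the femurs and to more in every mandible sample, with 58.8 and 29.2 CPM in replicates 2 and 3, and the 6 myeloid progenitor genes to 46.9 to 71.9 CPM and to 43.8, 101 and 96.8 CPM. Mandible replicates 2 and 3 were highest in these 4 lists, as they were for the members. The neutrophil precursor list was also highest there (1133 and 1291 CPM). Other lists did not follow. The eosinophil genes summed to 138 CPM in mandible replicate 2 and to 0.125 to 0.758 CPM in the other samples. The monocyte genes were highest in mandible replicate 1 (4383 CPM) and the maturing neutrophil genes in femur replicate 3 (35727 CPM). Cells with the pro-B or stem cell labels made up 1.11 to 1.98% of cluster 5 in the femurs and 0.630, 6.09 and 2.99% in the mandibles. The part of these cells in the site values was not tested.

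Proportions between the 4 genes in the monocyte cluster were set beside those of cluster 4. The Prtn3 to Elane ratio of CPM was 0.699 to 0.855 in cluster 4, below 1 in all 6 samples, and 1.30 to 2.52 in cluster 5, above 1 in all 6. Ctsg to Elane was 0.0663 to 0.129 in cluster 4 and 0.366 to 0.844 in cluster 5. Mpo to Elane was 0.219 to 0.329 in cluster 4 and 0.287 to 0.807 in cluster 5, and these ranges overlapped. The ratios of Prtn3 and of Ctsg to Elane in cluster 5 were thus outside the cluster 4 range in every sample. Taken singly, neither ratio was particular to cluster 5. In cluster 0, with 1208 Elane UMIs in all, Prtn3 to Elane was 0.972 to 2.38 and Mpo to Elane 0.405 to 0.803, also wholly above the cluster 4 range. Ctsg to Elane in cluster 0 reached 0.422 but overlapped the cluster 4 range, with femur replicate 3 inside it. In cluster 1, with 492 Elane and 99 Ctsg UMIs, Ctsg to Elane was 0.148 to 0.395, wholly above that range. Prtn3 to Elane in cluster 1, 0.812 to 1.66, overlapped its cluster 4 range. The ratios are a description, as the clusters were made from these cells.

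Cells of different labels within cluster 5, pooled over the 6 samples, carried the genes in different proportions. The 3734 monocyte-labelled cells carried 58.5 CPM of Elane, 106 of Prtn3, 13.8 of Mpo and 19.9 of Ctsg. Another 2529 cells were labelled neutrophils and carried 28.1 CPM of Elane, 40.0 of Prtn3, 10.4 of Mpo and 8.36 of Ctsg, with 25.6% of the cluster's Elane UMIs and 21.0% of its Prtn3 UMIs. The 482 cells labelled macrophages and 174 labelled DC were low, at 7.02 and 4.20 CPM of Elane. Pro-B or stem cell labels were given to 181 cells with 472 CPM of Elane, 890 of Prtn3, 670 of Mpo and 344 of Ctsg, and they held 59.3% of the cluster's Mpo UMIs. These pooled values rest mostly on mandible replicates 2 and 3, with 79 and 35 of the 181 cells, and by sample the Mpo level of the label ran from 8.14 to 1090 CPM. The 47 cells labelled basophils, of which 17 and 19 were from mandible replicates 2 and 3, carried 1569 CPM of Ctsg and 679 of Mpo but 70.6 of Prtn3 and 12.3 of Elane. They were high in Mcpt8 (12417 CPM), the basophil protease, and Prss34 (20915 CPM). Among them 25 had a Ctsg UMI, and they held 511 of the 2560 Ctsg UMIs of cluster 5. The 3 basophil-labelled cells of femur replicate 2 had 0 UMIs of each member among 12526 UMIs, a count of 0 that allows up to 3.

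The high-mitochondrial cluster 7 held 318 Elane UMIs, of which 65.7% came from 7 monocyte-labelled cells, so its CPM (6.32 to 119 for Elane) rests on very few cells. Mpo was above Elane there in 5 of 6 samples, with a pooled ratio of 1.38.

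Whether the site difference itself varied between cell types was tested with limma on each sample's difference in log2 CPM. Cluster 4 minus cluster 0, the log2 difference of the site effects was 0.89 ± 0.37 for Elane, 1.39 ± 0.42 for Prtn3, 0.47 ± 0.30 for Mpo and 0.07 ± 0.43 for Ctsg (SE). None passed in limma (adjusted p from 0.737 to 0.980), as 0% of genes did, and Prtn3 alone was under an unadjusted p of 0.05 (0.0168), where 6.55% of genes were. Cluster 4 minus cluster 5 gave 0.46 ± 0.80, 0.06 ± 0.68, -0.45 ± 0.92 and -0.20 ± 0.61, and none passed in limma, as 0% of genes did. At an unadjusted p of 0.05 by limma there were 0 of 4 members, against 803 of 11866 genes. At these SEs a difference of 1 doubling between the monocyte and precursor clusters was not detectable.

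Cell cycle phase, called by the authors from lists of S and G2M genes, divided cluster 4 into 3107 S cells, 4426 G2M cells and 88 G1 cells. Elane stood at 1455, 1179 and 881 CPM in S cells of femur replicates 1 to 3 and at 474, 472 and 431 CPM in their G2M cells. In mandible replicates 1 to 3 it stood at 1562, 2193 and 2098 CPM in S cells and at 696, 1170 and 1259 CPM in G2M cells. S cells were above G2M cells in every sample. The S to G2M ratio of CPM ran from 1.67 to 3.07 for Elane, from 1.34 to 2.81 for Prtn3, from 1.41 to 3.36 for Mpo and from 0.959 to 3.26 for Ctsg, where mandible replicate 3 was the 1 sample below 1. Median depth per cell was higher in G2M than in S in all 6 samples, at 17803 to 24438 against 17424 to 22636 UMIs, and in the few G1 cells it ran from 3605 to 36290.

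Tested over phase sums with the sample as a term, all 4 members were higher in S than in G2M, against 25.4% of the 10858 genes tested (22.9% were lower). The log2 fold changes were 1.15 ± 0.33 for Elane, 0.99 ± 0.28 for Prtn3, 1.20 ± 0.27 for Mpo and 0.94 ± 0.20 for Ctsg (edgeR adjusted p = 0.00475, 0.00420, 0.000599 and 0.000372). This contrast was added after the G1 cells had been seen to be few. DESeq2 on the same 18 sums called none (adjusted p = 0.222, 0.202, 0.280 and 0.456), where it called 22.3% of genes higher in S. When the S and G2M sums were then fitted without the G1 sums, edgeR (adjusted p = 4.27e-10, 2.59e-08, 1.28e-08 and 1.04e-05) and DESeq2 (1.55e-18, 1.40e-07, 2.63e-11 and 0.000112) called all 4, against 28.5 and 22.6% of all genes higher in S. Within neutrophil-labelled cells the values were 1.15, 1.01, 1.27 and 0.99, all called by edgeR, against 27.3% of genes higher in S. Without the deepest 5% of each sample's cells they were larger, 2.03, 1.78, 1.77 and 1.34, also all called, against 28.1% of genes.

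**Figure D5:**
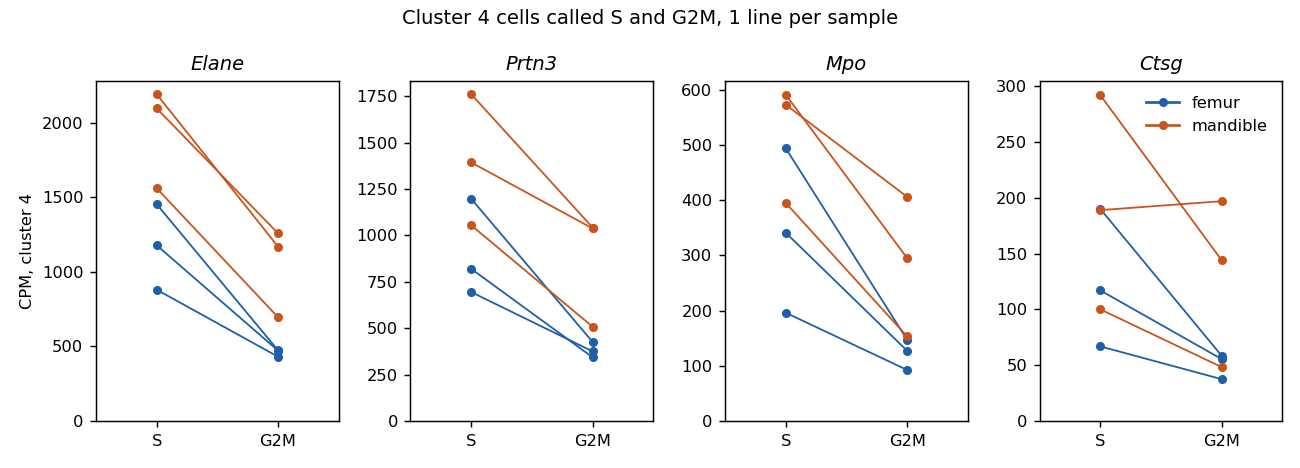
CPM of the 4 genes in S and G2M cells of cluster 4, 1 line per sample joining its phases. Lines fall from S to G2M in all 6 samples for Elane, Prtn3 and Mpo and in 5 of 6 for Ctsg, with an Elane ratio of 1.67 to 3.07.

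Against G1, S cells were called higher for all 4 (log2 2.10 ± 0.42, 1.88 ± 0.37, 1.26 ± 0.43 and 1.60 ± 0.50 for Elane, Prtn3, Mpo and Ctsg, edgeR adjusted p = 0.000432, 0.000337, 0.0295 and 0.0185), where 15.3% of genes were higher and 10.4% lower. The G1 sums came from 6 to 28 cells per sample, and Elane in them ran from 8.82 to 1164 CPM. DESeq2, and edgeR without mandible replicate 2, called 2 of 4, in each case Elane and Prtn3, with 13.6 and 11.2% of genes higher in S, and edgeR lost Mpo alone without femur replicate 3 or without mandible replicate 1. G2M against G1 gave 0.95 ± 0.42, 0.89 ± 0.37, 0.06 ± 0.44 and 0.66 ± 0.54. There 0 of 4 were called (edgeR adjusted p from 0.0973 to 0.958), where edgeR called 11.0% of genes higher and 6.81% lower. At an unadjusted p of 0.05 by edgeR there were 2 of 4 members, against 3218 of 10858 genes. DESeq2 called 0 of 4 members and 1927 of 10858 genes. Without femur replicate 2 edgeR called 2, Prtn3 and Ctsg, with 1968 of 10918 genes. Without mandible replicate 3 it called 1, Elane, with 1665 of 10821 genes.

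Genes for folding and packing these proteins were compared between S and G2M in the same edgeR fit, where 25.4% of all genes were called higher in S. Of the endoplasmic reticulum folding list, 12 of 12 genes were higher in S, with a median log2 of 0.50 against 0.01 over all genes. Sdf2l1, an ER chaperone cofactor, changed most (1.49 ± 0.11), followed in p by Pdia3 (0.62), a disulfide isomerase, Manf (0.55) and Dnajc3 (0.46). Of 11 granule processing and cargo genes tested, 9 were higher and 0 lower, among them Cst7 (0.99), Nkg7 (0.79) and Cd63 (0.65), a granule membrane tetraspanin.

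Other lists were called at rates nearer to those of all genes, of which 25.4% were higher in S and 22.9% lower. Of 8 genes of haem synthesis, which supplies the cofactor of myeloperoxidase, 3 were higher in S and 2 lower. Alad (1.38), Cpox (1.02) and Fech (0.33) rose, and Ppox (-0.32) was among those that fell. Among 9 transcription factors of the stage 2 were higher and 3 lower. Cebpa (0.95) and Cebpb (0.23) rose, whereas Gfi1 (-0.55), Cebpe (-0.39) and Runx1 (-0.25) fell. Of 8 secondary granule genes only Mmp8 passed (0.76). Of 3 serine protease inhibitors tested, Serpinb1a, an inhibitor of elastase, proteinase 3 and cathepsin G, rose by 0.43, and Serpinb6a fell by 0.42.

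The same lists gave 0 calls between the sites in cluster 4 by edgeR, where 0.0245% of all genes were called. DESeq2 on the same sums, where it called 1.23% of all genes, called 3 of their genes, all higher in mandible, which were Nkg7 among the granule cargo genes, the ER protein disulfide isomerase Pdia6 and the gelatinase Mmp9 of the secondary granule list. These 3 were named after their values were seen. Of 11 granule processing and cargo genes 9 were higher in mandible (median log2 0.20 against 0.00 over all genes), and 4 were higher at an unadjusted p of 0.05, where 6.21% of all genes were. Of 12 ER folding genes 10 were higher (median 0.13), 3 of them at that p. Secondary granule genes were split, 5 of 8 higher with a median of 0.03. None of the 12 relatives of the 4 genes by family or locus passed the filter on low counts in cluster 4. Among them Mcpt8 averaged 11.6 CPM there and ran from 0.274 to 49.2 CPM over the samples.

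Across the 54 sums of 9 clusters and 6 samples, the members ran with one another at Pearson r of 0.691 (Prtn3 with Mpo) to 0.907 (Elane with Ctsg) on log2 CPM. Of 6683 other genes of at least 10 CPM in cluster 4, those whose lowest r with any member was greatest were Chit1 (0.797), Cst7 (0.785), Ms4a3 (0.701), Cln6 (0.700), Ttc21a (0.681), Nkg7 (0.673), Nrg2 (0.673), Mt1 (0.672), Gtf2ird1 (0.663) and Glt1d1 (0.656). Among these, Chit1 is a chitinase of phagocytes, Cst7 the cathepsin C inhibitor and Ms4a3 a membrane protein of granulocyte and monocyte progenitors. The sums share libraries and the clusters were formed from the same cells, so the r describe likeness only.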

How the data were processed

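Raw UMI counts per gene and barcode were taken from the deposited matrices (10x 3′ libraries, mm10, Cell Ranger 7.0.1 per the submitters' notes, another version in the matrix header). No test pooled samples, while values called pooled and counts over the 6 samples combine them. The metadata deposited by the authors gave cells kept at 600 to 6000 genes and up to 20% mitochondrial counts, clusters at resolution 0.1 (Seurat, SCTransform, integration), phases and SingleR labels; its percent columns and the marker table's log2 fold changes and p-values were not used. Samples were grouped by their labels. Counts were summed per sample and cluster, and tested with edgeR 4.0.16 (TMM, filterByExpr, no covariate for site, sample as a term for phase; false discovery rate 0.05), with DESeq2 1.42.0 as an alternative and limma 3.58.1 (prior count 2) for differences between clusters, in R 4.3.3. Scripts were tested on simulated counts. For shares, a 2-sided exact permutation test enumerated the 20 assignments of samples. Depth was 82962160 to 244946998 UMIs per sample, and intervals cover counting error only. Authors' doublet removal is not given in the sources used here, and none was done.

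The 4 members, the lists and the tests were chosen with earlier results of these data known. From a list, at most 4 genes were named, those of smallest p, or of highest level in cluster 4 where levels are described; likeness named the 10 genes of greatest lowest r. Genes in the account of the Elane bands and marker values outside that rule were named after their values were seen. Protein sequences were not used here.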

Additional observations from a re-analysis of the deposited data

Results flagged for a closer look

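Transcripts of all 4 genes were also present in barcodes that the authors left out of their clusters, which no comparison above used. Over the 6 samples these barcodes held 21525 of 189738 Elane UMIs (11.3%), 18975 of 157612 Prtn3 UMIs, 12237 of 59785 Mpo UMIs (20.5%) and 4607 of 24738 Ctsg UMIs (18.6%), against 4.35% of all UMIs. Of 4315 such barcodes, 480 had 6000 genes or more, 38 to 153 per sample. In those, Mpo stood at 329 to 787 CPM, above the kept cluster 4 cells of the same sample in 4 of 6 samples, and Elane at 397 to 1261 CPM, above them in 2 of 6. Whether these barcodes hold more than 1 cell was not tested. With them included, the site log2 fold changes over all cells were 0.85, 0.82, 0.88 and 1.04 for Elane, Prtn3, Mpo and Ctsg (edgeR adjusted p from 0.516 to 0.596).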

How the results depend on the processing

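Of the main results, 102 values under alternatives stayed the same, 13 moved and 4 reversed. For counts of calls, the same meant within 1.5 times the main count, or 0 where that was 0. For site differences in shares it meant the same sign, and for log2 ratios of CPM between clusters within 1 SD. Of values of single genes, 355 kept direction and call, 22 gained a call, 18 lost it and 33 reversed. Against 0 calls in the 26 member tests between sites over the clusters and the 4 over all cells, leaving out 1 sample gave 0 to 6 (without mandible replicate 1, 4 in cluster 4 and 2 over all cells) and DESeq2 gave 2. No filter on low counts gave 7, of which the 4 in cluster 4 were higher in mandible. The other 3 were lower, Elane (-2.10) and Prtn3 (-1.98) in cluster 6 and Elane (-1.40) in cluster 7, where 0.199 and 0.369% of genes were called lower. In cluster 6 the femur UMIs came mostly from the 60 cells of femur replicate 3, with 36 of Elane and 44 of Prtn3. Femur replicate 2 held 6 and 10 there, and femur replicate 1 held 0 of each. Against 4 called for S over G1, leaving out 1 sample gave 2 to 4, and DESeq2, no sample term (no replicate block) and leaving out very deep cells gave 2 each. For G2M over G1, leaving out 1 sample gave 0 to 2 and no filter 3, where 1863 of 22599 genes were called. For S over G2M, DESeq2 and no replicate block gave 0 each against 4. The site difference in the share of member UMIs in cluster 4 (-0.912 points) ran from -2.76 to 0.481 without 1 sample, was 2.91 after thinning and 1.30 without very deep cells.

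Single values that changed sign included the site log2 fold changes in G1 cells (-0.39, -0.78, -1.29 and -2.69 for Elane, Prtn3, Mpo and Ctsg). Some site values in the remaining clusters changed sign too. In cluster 0 Elane was 0.14 in the main fit and -0.03 without femur replicate 1. Prtn3 there was -0.33 in the main fit and 0.09 without mandible replicate 1. For G2M over G1, Mpo ran from -0.58 to 0.56 without 1 sample and was -0.13 by DESeq2, -0.23 without the replicate block and -0.55 without very deep cells, and Ctsg ran from -0.20 to 1.61 and was -0.32 without very deep cells. Differences of site effects, cluster 4 minus cluster 0, ran from -0.20 to 0.46 for Ctsg without 1 sample. Cluster 4 minus cluster 5 they ran from -0.49 to 0.99 for Elane, -0.65 to 0.60 for Prtn3, -1.33 to 0.15 for Mpo and -0.71 to 0.23 for Ctsg, and Prtn3 was -0.01 without TMM. The share of UMIs in cluster 4 ran from -0.968 to 0.769 points for Elane and from -2.83 to 1.18 for Prtn3, for which it was 5.08 after thinning and 1.67 without very deep cells. The causes were not tested.

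Library numbers in the labels and title numbers are shared by samples of both sites. Only 2 pairs share a library number, and their deviations from the site means correlated across genes at 0.003 and 0.133 in cluster 4, 0.436 and 0.377 in cluster 0, 0.09 and 0.195 in cluster 5 and 0.154 and 0.167 over all cells. The crossed pairs of the same 4 libraries gave -0.097 and -0.187 in cluster 4 and -0.4 and -0.4 in cluster 0. They gave -0.042 and -0.209 in cluster 5 and -0.153 and -0.152 over all cells. Title numbers gave 0.163, -0.097 and 0.091 in cluster 4. The labels do not say that a number marks a shared animal or batch, so the samples were not taken as paired, and whether library numbers mark a shared source is not known. With the replicate block by library number, over 4 samples, 4 members were called between sites, all in cluster 4, and by title number 0. Among all genes the library block called 573, 1587, 1268 and 499 in clusters 0 to 3, against 2, 9, 4 and 1 in the main fits. These fits differ in the samples used as well as in the block, and the 4 samples leave little to measure the spread. Under that library block Elane in cluster 5 was -0.01, the differences of cluster 4 minus cluster 5 were 0.17 for Mpo and 0.26 for Ctsg, and the share differences were 0.323 points for all members and 0.597 for Prtn3. Protein identity between the members, a planned description, was not run.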
